A study of Caenorhabditis elegans with 2 samples.

Results

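Among the genes that the authors listed as bound by the nuclear hormone receptor NHR-86 in *C. elegans* given the small molecule R24, 6 have names of the cytochrome P450 (cyp), glutathione transferase (gst) and multidrug resistance-associated transporter (mrp) families, which serve xenobiotic detoxification. They are the cytochrome P450 genes cyp-35A1, cyp-35B1 and cyp-35C1, the glutathione transferase genes gst-5 and gst-15, and the transporter gene mrp-3. These 6 of 189 genes in the authors' deposited table were chosen by their listing, that is by binding measured in the same contrast that is described here, together with the start of their names (cyp-, gst- or mrp-). Listed detoxification genes of other families are described after them. Their enrichment over the solvent is therefore a description and no test was made on it. By comparing the values in that table with the authors' peak list, 5 of the 6 genes were joined to 1 peak each, and cyp-35C1 was joined to none. The peak list holds 220 peaks.

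Chromatin was precipitated with an antibody to GFP from whole animals of strain VL648. Animals of both groups carried the unc-119(ed3) allele and the transgene wwIs22, in which the nhr-86 promoter (Pnhr-86) drives the nhr-86 open reading frame fused to GFP, with unc-119(+) as rescue. No mutation of nhr-86 is given in the genotype, and the study reports a higher level of nhr-86 transcript in this strain than in wild-type animals. Per the ChIP methods of the study, synchronized hermaphrodites at the L4 stage were placed on slow killing plates. There they were held overnight on 70 µM R24 or on 1% DMSO, its solvent. Each group was sequenced as 1 library, with 879943 tags for R24 and 2047658 for DMSO, so the DMSO values below were scaled by 0.430 to the depth of the R24 library. No library of untagged animals and no input library was used here. In whole animals, more tags at a site can come from more cells with the receptor bound or from more binding in each cell, and these cannot be told apart.

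Detoxification of small lipophilic molecules is usually described in 3 phases. Cytochrome P450 enzymes oxidise a compound, transferases such as the glutathione S-transferases attach a polar group to it, and ATP-binding cassette transporters pump the product out of the cell. In *C. elegans* the intestine is a main site of this response, and nuclear hormone receptors are among its regulators. The question for these genes was where, and how strongly, the tagged receptor was found with R24 over the solvent. The study's expression measurements were not part of the data used here. Among the genes that it found R24 to induce independently of nhr-86, many encode cytochrome P450 enzymes. In its qRT-PCR, cyp-35B2 and cyp-35A3 responded to R24 with neither nhr-86 nor the kinase gene pmk-1 required. Neither cyp-35B2 nor cyp-35A3 is among the listed genes. The study also set its bound genes against those that need nhr-86 for induction by R24. Whether that overlap holds any of the genes described here was not examined. Binding at a cyp gene is set beside those results here without being taken as evidence about the expression of that gene.

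At each peak 3 measured quantities are used. The pileup is the number of R24 tags, extended to the fragment length of 296 bp, that cover the summit. The background is the density of DMSO tags around the summit, scaled to the R24 library and expressed per 296 bp, and the authors' peak caller took the highest density of 3 windows (296 bp, 1 kb and 10 kb). The fold is pileup + 1 over background + 1. Because the narrowest window that fits each background could be recovered, the DMSO tags in it are given as well. Where that is the 1 kb window, the 10 kb window at the same density could have set the background instead. The DMSO interval would then be narrower. All intervals are exact at 95% and cover counting error only, and they take no account of the summit having been placed where the pileup is highest. Positions are in ce10.

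The phase of oxidation held the peak with the highest fold of the 6 genes. cyp-35A1 (C03G6.14) belongs to the CYP35 group of cytochrome P450 enzymes, known in *C. elegans* for strong induction by foreign compounds. It was joined to a peak on chromosome V from 7361729 to 7362616, with the summit at 7362194. There 27 R24 tags (17.8 to 39.3) stood over a DMSO background of 2.19 tags (1.87 to 2.54), a fold of 8.78 and a −log10 q of 16.5. The pileup ranked 76 of 220, while the background was among the lowest, at rank 213, and was 0.424 times the median of all peaks. Only the fold at the ugt-15 peak (11.1) was higher among all 220 peaks, and the join of that peak to ugt-15 rests on a partial match of values. The cyp-35A1 background came from the 10 kb window, which held 172 DMSO tags. It follows that the 296 bp around the summit held at most 5 DMSO tags, and that the ratio of R24 to scaled DMSO tags at the summit itself was at least 12.6. The peak was 888 bp long, the 12th longest, with its summit 465 bp from one end and 422 bp from the other.

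cyp-35B1 (K07C6.4), another gene of the CYP35 group, had fewer R24 tags over a higher background. Its peak on chromosome V (3938715 to 3939024, summit 3938828) held 19 R24 tags (11.4 to 29.7) over a background of 3.69 (2.47 to 5.30), a fold of 4.27 and a −log10 q of 4.99. That background equals 29 DMSO tags in 1 kb, or the same density in 10 kb, and at most 8 DMSO tags lay in the 296 bp at the summit. The peak was short, at 310 bp and rank 184 of 220, close to the fragment length that is the shortest a peak can be. Its summit lay off centre, 113 bp from the start and 196 bp from the end.

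cyp-35C1 (C06B3.3) is listed in the authors' table but its value there equalled no fold and no −log10 q of the peak list, so no tag count is given for it. In gene order it lies on chromosome V between irg-5, 64 genes before it, and C29F3.9, 607 genes after it, which are the nearest genes with a joined peak on either side. Between those peaks the list holds 3 others, at 13742747 to 13743066 (fold 3.26), 14200033 to 14200335 (3.56) and 15357034 to 15357409 (4.15). None of these could be tied to cyp-35C1 by a value, and all 3 had folds under that of cyp-35B1. A gene 5 places away, C06B3.6, is also listed and also without a joined peak.

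**Figure D1:**
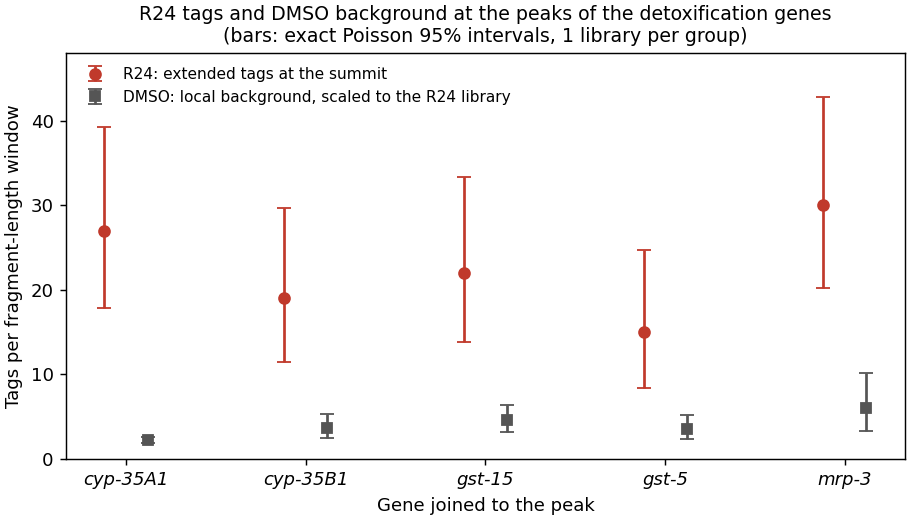
Tags per 296 bp window at the peaks of 5 detoxification genes. Circles are R24 tags at the summit and squares the DMSO background scaled to the R24 library, each from 1 library, with exact Poisson 95% intervals as bars. The R24 interval lies above the DMSO interval at all 5 peaks, and the gap is narrowest at gst-5, from 5.15 to 8.40. The peaks were called for such a difference in the same libraries, so this is a description and no test.

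The phase of conjugation is represented by gst-5 and gst-15, both on chromosome II. gst-15 (F37B1.4) encodes a glutathione S-transferase. Its peak (13612561 to 13613102, summit 13612800) held 22 R24 tags (13.8 to 33.3) over a background of 4.58 (3.21 to 6.34), a fold of 4.12 and a −log10 q of 5.46. The background equals 36 DMSO tags in 1 kb, or the same density in 10 kb, and the 296 bp at the summit held at most 10. At 542 bp the peak was the 45th longest. Another peak, on chromosome I, has the same −log10 q, so the join of gst-15 rests on its chromosome as well.

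gst-5 (R03D7.6) encodes a glutathione S-transferase that can conjugate the lipid peroxidation product 4-hydroxynonenal. It had the weakest peak of the 5. On chromosome II from 10951163 to 10951480 (summit 10951312), 15 R24 tags (8.40 to 24.7) stood over a background of 3.56 (2.37 to 5.15). The fold of 3.51 ranked 159 of 220 and the −log10 q of 2.81 ranked 209. The background equals 28 DMSO tags in 1 kb, or the same density in 10 kb, and at most 8 lay at the summit. This was the only one of the 5 peaks with a fold below the median of all peaks, 3.90.

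The phase of export is represented by mrp-3 (E03G2.2), a gene of the multidrug resistance-associated group of ATP-binding cassette transporters. Its peak on chromosome X (15939825 to 15940254, summit 15940069) had the most R24 tags of the 5, with 30 (20.2 to 42.8), and also the highest DMSO background, 6.02 (3.29 to 10.1). The fold was 4.42 and the −log10 q 8.33. Here the background came from the 296 bp window, which held 14 DMSO tags, so that the DMSO library was denser at the summit than over the surrounding 1 kb or 10 kb. The same held for 108 of the 220 peaks (49.1%). At 90 peaks, cyp-35B1, gst-15 and gst-5 among them, 1 kb was the narrowest window with a whole number of tags. At 22, cyp-35A1 among them, it was 10 kb. Some of the 90 may instead have been set at the same density in 10 kb. These 3 groups had median folds of 3.67, 4.07 and 4.40.

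**Figure D2:**
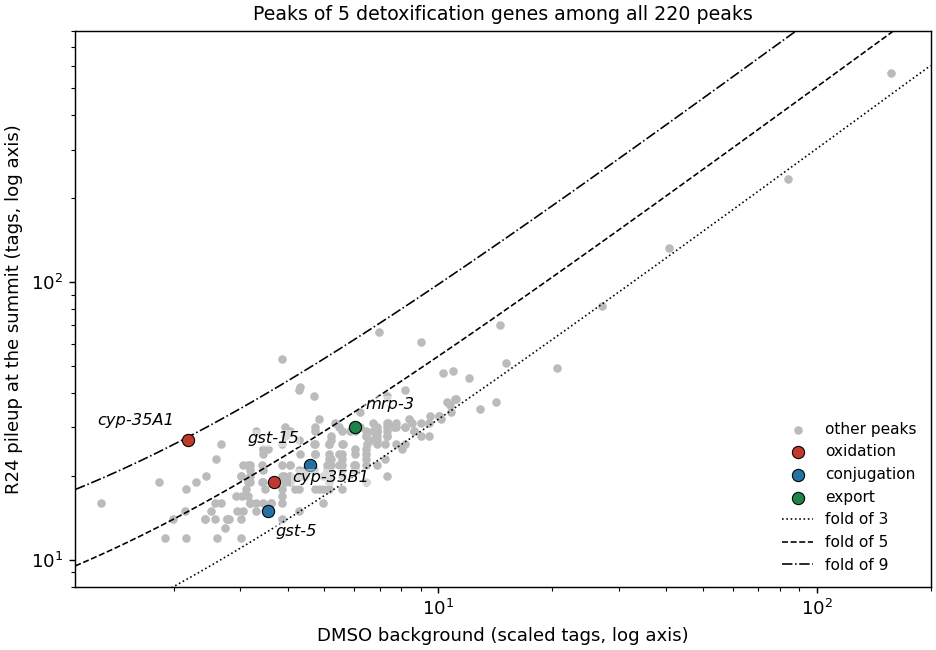
R24 pileup (vertical, tags) against DMSO background (horizontal, scaled tags) for 220 peaks, both on log axes, with lines of equal fold. The cyp-35A1 peak lies at the upper edge of the cloud, at a background of 2.19 with 27 tags, among other peaks of high fold such as that of clec-174 (7.35), while cyp-35B1, gst-15, gst-5 and mrp-3 lie within the main cloud between folds of 3.51 and 4.42.

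The 5 peaks thus differed in fold mainly through cyp-35A1, with the other 4 between 3.51 and 4.42. Their pileups spanned 15 to 30 tags and their backgrounds 2.19 to 6.02, against medians of 23 and 5.16 over all peaks. Of the 5, only cyp-35A1 had a fold of at least 5, as did 38 of the 220 peaks (17.3%). On ratios without an added tag and with the backgrounds held fixed, cyp-35A1 stood above mrp-3 by 2.47 times (1.42 to 4.31). The same quotient was 2.40 (1.28 to 4.56) against cyp-35B1, 2.57 (1.41 to 4.73) against gst-15 and 2.93 (1.50 to 5.93) against gst-5. Among the other 4 genes all 6 quotients lay between 0.968 and 1.22, with intervals from 0.527 at the lowest to 2.59 at the highest, so their order is not resolved at this depth. cyp-35A1 was singled out as the highest of the 5 after the values were seen, so its 4 intervals describe counting error and are no test.

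When the counting error of both libraries entered the ratio, the cyp-35A1 ratio was 12.3 (7.90 to 18.6). Those of cyp-35B1, mrp-3, gst-15 and gst-5 were 5.15 (2.73 to 9.50), 4.99 (2.56 to 10.2), 4.80 (2.69 to 8.39) and 4.21 (2.09 to 8.16). Each interval lay above 1, from which nothing is read, since the peaks were called for R24 over DMSO in these same libraries. The interval of cyp-35A1 overlapped those of the other 4. The background of cyp-35A1 was the only one of the 5 below the floor of 2.89 tags that the worm genome size gives, where the authors' run used the human size. With that floor its fold was 7.19 and its rank 5 of 220.

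**Figure D3:**
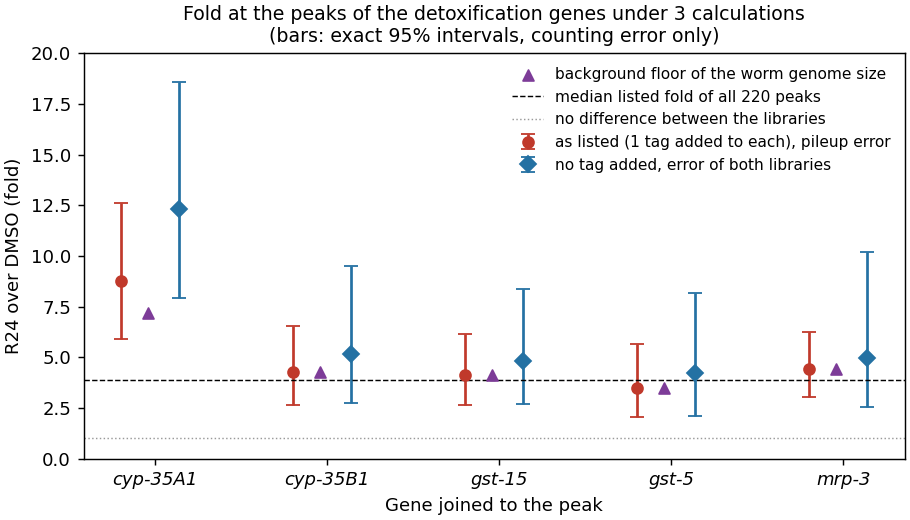
R24 over DMSO at the peaks of 5 detoxification genes, as listed with the error of the pileup (circles), with the floor that follows from the worm genome (triangles, no error drawn) and without an added tag with the error of both libraries (diamonds). Bars are exact 95% intervals. cyp-35A1 lies highest in all 3 calculations (8.78, 7.19 and 12.3), and the other 4 lie close together. The line at 3.90 is the median of the listed fold over all peaks. The diamonds of the other 4, at 4.21 to 5.15, are a different measure and are not to be set against it.

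Fold and −log10 q, which share their inputs, ordered the peaks differently. By fold the order was cyp-35A1, mrp-3, cyp-35B1, gst-15 and gst-5, and by −log10 q gst-15 came before cyp-35B1. mrp-3 ranked 65 by fold, 44 by −log10 q and 41 by pileup. cyp-35B1 ranked 78 by fold, 127 by −log10 q and 162 by pileup, its 19 tags being few among the 220 peaks. None of the 5 pileups came near the limit set by 1 tag per position and strand, of which they reached 2.53% to 5.07%.

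**Figure D4:**
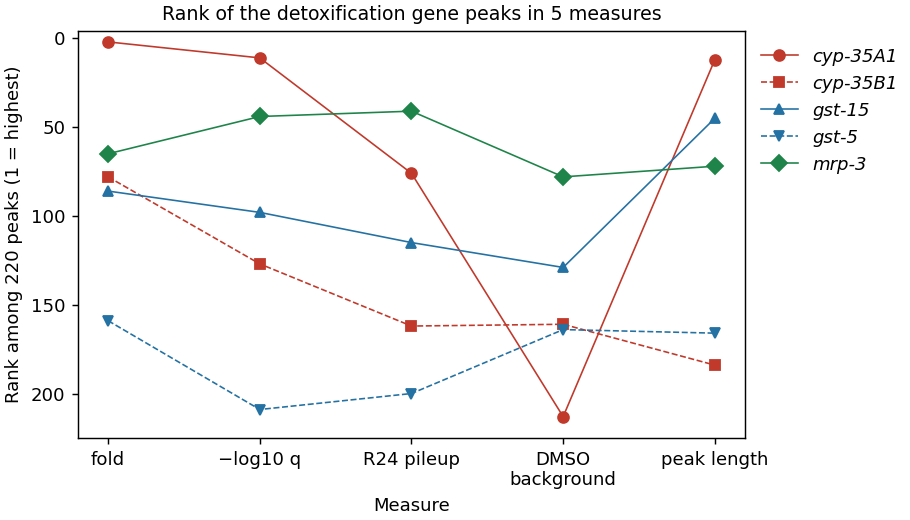
Rank of 5 detoxification gene peaks among 220 peaks (1 is the highest value) in fold, −log10 q, R24 pileup, DMSO background and peak length. cyp-35A1 is at rank 2 for fold and 12 for length but 213 for background, and gst-5 is at rank 159 or lower in every measure.

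None of the 5 peaks had another peak within 10 kb, and none within 20 kb. Among all 220 peaks 53 (24.1%) had another within 10 kb, and with 5 peaks nothing is read from the difference. The nearest to gst-15 was 22510 bp away, the peak of C31C9.2 (phdh-1, a phosphoglycerate dehydrogenase gene) with a fold of 3.19. The nearest to gst-5 was 23498 bp away, the peak of metr-1, the methionine synthase gene, with a fold of 3.28. The cyp-35B1, mrp-3 and cyp-35A1 peaks were 85251, 98527 and 198010 bp from the next peak, which for cyp-35A1 was that of the UDP-glycosyltransferase gene ugt-41 (fold 4.04).

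Relatives that the table does not list stand close to 3 of the 6 genes. cyp-35A1 is directly followed by cyp-35A2, and cyp-35B1 has cyp-35A5, cyp-35B2, cyp-35B3 and cyp-34A5 within 10 genes on either side. gst-15 has 8 other gst genes within that span (gst-20, gst-24, gst-14, gst-12, gst-16, gst-19, gst-17 and gst-18). None of these relatives is listed. gst-5, mrp-3 and cyp-35C1 have no relative of their own family so close. The study speaks of the listed genes as bound at their promoters. The distance that counted as promoter is not given in the sources used here and the position of each peak relative to its gene was not determined, so a listed gene need not be the nearest one to its peak. Reads that map equally well to similar copies are lost to a filter on mapping quality, whose part in these values was not tested.

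**Figure D5:**
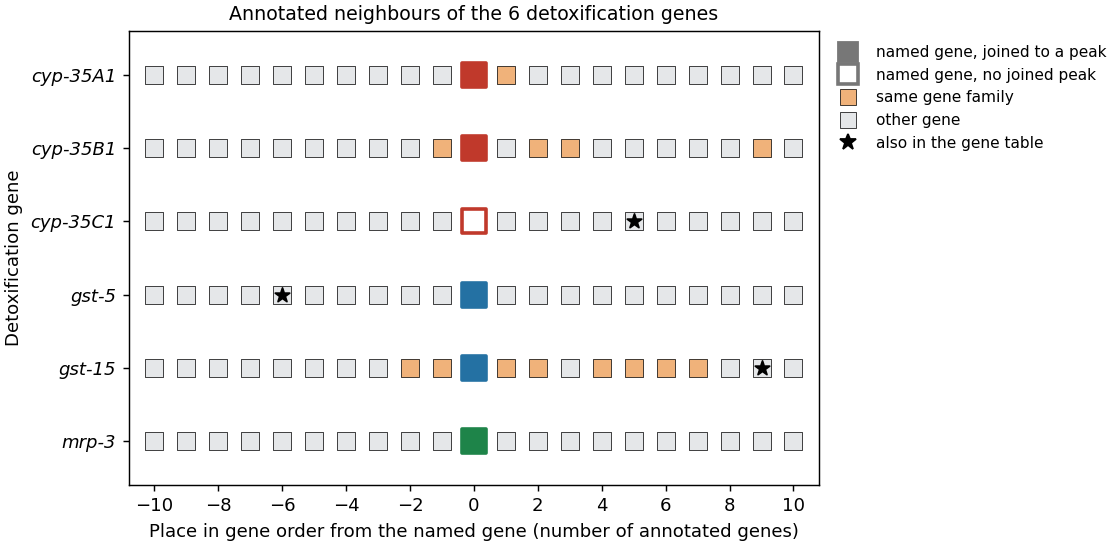
The 10 annotated genes on either side of each of 6 detoxification genes, in gene order (horizontal, number of genes). Large squares are the named genes, filled where joined to a peak, orange squares are genes of the same family, and stars mark other genes of the authors' table. No orange square carries a star, and the 3 stars lie beside cyp-35C1, gst-5 and gst-15.

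Across whole families most genes were not listed. All 3 listed P450 genes came from the cyp-35 group, which has 11 annotated genes, every one on chromosome V, and none of the other 69 cyp genes was listed. Of 44 gst genes 2 were listed and of 8 mrp genes 1. By comparison, 0.388% of all 46926 annotated genes and 0.766% of the 19983 protein-coding genes were listed, but since the 6 genes were chosen by listing, nothing is read from these shares. Over the wider roles, oxidation (cyp, fmo, dhs, adh and alh genes) had 4 listed of 130 (3.08%). Conjugation (gst, gsto, gstk, ugt and ssu genes) had 7 of 118 (5.93%) and export (the ATP-binding cassette genes) 1 of 58 (1.72%). These shares are above those of all genes, and again nothing is read from them, since the roles hold the 6 genes chosen by listing. No pgp gene of 15, the P-glycoprotein group of exporters, was listed, and nothing is read from so few genes. The median folds of the joined genes were 4.55 for oxidation (3 genes) and 4.12 for conjugation (7 genes), against 3.90 over all peaks. The oxidation median is the value of alh-5, whose background of 2.52 lay below the worm floor of 2.89. With so few genes nothing is read from the order of these medians. Beyond the 6 genes the listed ones were alh-5, an aldehyde dehydrogenase gene, and 5 ugt genes, whose products attach sugars to small molecules. At the ugt peaks the folds ran from 3.32 (ugt-14) to 11.1 (ugt-15). Of the 5, 3 reached a fold of 5, as did 38 of all 220 peaks (17.3%), and with 5 peaks nothing is read from the difference. Among those 3, ugt-15 and ugt-67 (fold 5.63) were joined by the decimals of −log10 q alone, a weaker match than a full value.

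Likeness between peaks was measured as the distance in log2 pileup and log2 background over the 141 other peaks joined to a gene. The peak most like that of cyp-35A1 was that of clec-174, a C-type lectin gene (chromosome IV, 3941565 to 3942264), with 26 tags over 2.67, a fold of 7.35 and a distance of 0.293. The other 4 genes had closer matches. T16G1.7 was nearest to cyp-35B1 (20 tags over 3.87, distance 0.101), and ZK6.6 to gst-15 (21 over 4.71, 0.0779). C32D5.14 was nearest to gst-5 (16 over 3.61, 0.0953), and pmr-1, a calcium and manganese pump gene of the Golgi, to mrp-3 (29 over 6.02, 0.0489).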

How the data were processed

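Reads were aligned by the authors to ce10 (BWA MEM 0.7.15), handled with Picard and kept at a mapping quality of 10 or more (SAMtools), and peaks of R24 over DMSO were called with MACS (2.1.1.20160309). Per the file headers, the run kept 1 tag per position, used a q cutoff of 0.05 and set the genome size to 2.7 Gb, the human value, where 90 Mb is the worm value. It also gives a modelled fragment of 296 bp and a q cutoff, where the methods of the study name a p threshold and no modelling. Libraries are numbered in the header but not in the labels.

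In the deposited peak list are the pileup (signal), the fold enrichment (a ratio), −log10 p and −log10 q. Background was recovered from pileup and fold, and gave the deposited −log10 p again within 0.000322. The window behind each background was the narrowest in which it came to a whole number of DMSO tags (all 220 did, tolerance at most 0.00168 tags, 2 times the rounding error). A whole number in 1 kb can also be a multiple in 10 kb. This step was checked on simulated data, and so was the join below, but only for matches through −log10 q. Matches through the fold, as for cyp-35A1 and cyp-35B1, or through decimals were not simulated.

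A gene table column headed fold enrichment by the authors was used as a score to join genes to peaks. All 189 values were numbers of 5 decimals multiplied by 1.325, among 1000 factors tried. After division, a gene was joined where its value equalled the −log10 q or fold of 1 peak on its chromosome (tolerance 6e-06), or the decimals of its −log10 q, and genes out of order were left out. This joined 146 genes. cyp-35A1 and cyp-35B1 matched through the fold, and gst-5, gst-15 and mrp-3 through −log10 q, so the headed values of these genes are different quantities and were neither compared nor printed. The table's columns of p and q are the authors' own comparison and were not used.

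Names, biotypes and gene order came from RefSeq (WBcel235), which held 182 of 189 genes. Since its build differs from ce10, none of its coordinates was used, so whether a peak lies in a promoter, exon or intron was not determined, and no sequence is shown. With 1 library per group no test was made. The genes and lists were chosen with earlier results of these data known. Named genes were the 6, their listed relatives by role, genes of near peaks or listed within 10 genes, and the most alike peak for each. Python 3.11.15, numpy 2.4.6, pandas 2.3.3, scipy 1.17.1 and matplotlib 3.10.9 were used.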

Additional observations from a re-analysis of the deposited data

How the results depend on the processing

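Of 77 alternatives, 10 moved a value beyond its counting interval or a count beyond 1.5 times. Another 10 took the ends of the pileup interval and 4 a floor below the background, so that their outcome was fixed by construction, and 53 others left the value inside those limits. Some of these 53 could not have moved either. A count of 0 peaks within 10 kb cannot rise within 5 kb or after merging, and all 5 joins were full matches already. All 118 conjugation and 20 regulator genes are protein-coding, so their shares could not change. For mrp-3 the fold without an added tag and with the most DMSO tags was the same value, 4.99. Each fold stayed within the counting interval of its pileup without an added tag and with the most DMSO tags the summit window can hold, the last chosen after seeing the data. Ranks moved more. cyp-35A1 went from rank 2 by fold to 11 by −log10 q, 76 by pileup and 5 with the worm floor, cyp-35B1 from 78 to 127 and 162 by −log10 q and pileup, and mrp-3 from 65 to 41 by pileup. With a fold of at least 5, 1 oxidation, 3 conjugation, 0 export and 0 regulator genes were left of 4, 7, 1 and 2, beside 17.3% of all peaks. The 3 conjugation genes were ugt genes and none was a gst gene. A planned filter on the gene table's q was dropped, since that column holds the authors' own comparison. The number joined to a peak stayed 5 of the 6 genes with full matches alone and with a match tolerance 10 times wider or narrower. Motif searches planned for the promoters were not run, since no sequence of this build was used here. No paired analysis was possible because each group held 1 library, which also left no replicate to leave out. With 15 to 30 R24 tags at a peak, depth limits each fold to the intervals given above.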

Other observations

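A hand-made list of 20 regulators, chosen with earlier results of these data known, held nhr-8, nhr-48, nhr-49, nhr-86, nhr-114, nhr-176, daf-12, ahr-1, aha-1, skn-1, mdt-15, wdr-23, pmk-1, cbp-1, elt-2, elt-7, daf-16, hsf-1, pqm-1 and cep-1. Of these 2 were listed (10%), nhr-48 and nhr-86, where 0.388% of all annotated genes and 0.766% of protein-coding genes were, and nothing is read from so short a list that includes the tagged receptor itself. nhr-48 (chromosome X, 15709495 to 15709815), a relative of the receptor gene nhr-8, had 20 R24 tags over a background of 4.07, a fold of 4.14, close to the gst-15 and cyp-35B1 peaks. nhr-86 itself (chromosome V, 2066652 to 2067434), joined by the decimals of −log10 q alone, had 133 tags over 40.8 and a fold of 3.20. The strain carries further nhr-86 sequence in its transgene, whose part in the nhr-86 value was not tested. skn-1, ahr-1, mdt-15 and nhr-8, which are known for roles in the response to foreign compounds, were not listed. The aldehyde dehydrogenase gene alh-5 (chromosome V, 1999799 to 2000229) had 15 tags over 2.52 and a fold of 4.55, which with the same pileup as gst-5 stood above its 3.51 through the lower background. That alh-5 background lay below the floor of 2.89 tags that the worm genome size gives. With that floor its fold would be lower, and no such value is given here.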
